A study of Mus musculus with 40 samples.

Results

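The clustered protocadherins were read on 40 mouse brain arrays by 38 probes for 35 genes, out of 55681 probes for transcripts. Members were the probes whose gene name begins with Pcdha, Pcdhb or Pcdhg, control spots left out. The alpha cluster had 9 probes for 7 genes, the beta cluster 22 probes for 22 genes and the gamma cluster 7 probes for 6 genes. RNA came from the cerebral cortex and the cerebellum of C57Bl/6 mice in 10 groups of 4 arrays, with 4 mice per group by the study's design. Young wild-type (WT) mice on the normal diet were 2 months old. All other groups were 29 months old and are called aged: WT mice on the normal diet, WT mice on the deficient diet, Ttpa-/- mice on the deficient diet and Ttpa-/- mice on the supplemented diet, each in both regions. The normal diet held 36 mg and the supplemented diet 600 mg of alpha-tocopherol, a form of vitamin E, per kg of food, and the third diet was deficient in it. Ttpa encodes the alpha-tocopherol transfer protein, which sends the vitamin from the liver to other tissues. Ttpa-/- mice lack the gene in all cells, so a difference in the brain can follow from the brain, the liver or any other tissue. The study used them as a model of chronic oxidative stress, and no young Ttpa-/- group and no aged Ttpa-/- group on the normal diet was among the 10.

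Clustered protocadherins are cell-surface adhesion proteins of neurons, encoded by tandem arrays of similar genes. In the alpha and gamma clusters each variable first exon has its own promoter and is spliced to constant exons shared by the whole cluster, so that all isoforms of a cluster have the same cytoplasmic tail. Beta genes have a single exon and no such tail. A neuron uses a small, largely random set of the variable promoters, under the control of CTCF, cohesin and distant enhancers, and of DNA methylation. Proteins from the clusters bind their own kind across cells, which lets a neuron tell its own branches from those of others. The C-type isoforms at the 3' end of the alpha and gamma clusters are used more uniformly; Pcdhac2 is the isoform of serotonergic neurons.

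On the positions given in the deposited files, which are those of the mm9 build, all members lay on chromosome 18 within 887 kb. Alpha probes ran from 37114742 to 37347294, beta probes from 37427011 to 37680728 and gamma probes from 37823813 to 38001437. Probes for variable exons tell isoforms apart, while 3 probes lay at the 3' end of their cluster, where the transcripts of all isoforms end. One of these, named Pcdhac2 in the files, is called here the alpha constant probe, and the others, both named Pcdhga9, are called the gamma constant probes 1 and 2. The C-type isoforms had probes of their own for Pcdhac1, Pcdhac2 and Pcdhgc5. A reference table of names listed 58 genes of the clusters, 23 of which had no member probe here. Each probe is 60 bases long and the genes of a cluster are similar in sequence, so part of a probe's signal may come from a neighbouring isoform, and how much was not tested.

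Levels below are log2 signals relative to the array's 75th percentile, which is 0 on this scale, and a change is a difference of such levels. Levels of different probes are not compared, since probes differ in brightness. Of the 38 members, 25 were well above background on all 40 arrays, 13 on some and 0 on none. Detection differed by region for several: Pcdhb5 was above background on 20 of 20 cortical and 6 of 20 cerebellar arrays, Pcdhb11 on 4 and 17, and Pcdhga1 on 9 and 20. Pcdhac1 was above background on 1 array only, a young cerebellar one, and Pcdhb1, whose promoter lacks the element shared by most of the family, on 3 arrays. Group changes were tested with limma over every probe that cleared background on the 4 arrays of 1 or both compared groups, and called when the Benjamini-Hochberg adjusted p was under 0.05 and the fold change over 1.5. A called member that cleared background on all 4 arrays of 1 group only is named as such, because it had to be brighter there.

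Arrays of a group were alike, with mean correlations of 0.979 to 0.991 within groups, and 51.4% to 61.4% of all probes were well above background. The region labels held: the cortical marker Fezf2 was above background on 20 of 20 cortical and 0 of 20 cerebellar arrays, and the granule cell markers Gabra6 and Cbln3 on 0 and 20. One of the probes for Ttpa was above background on 12 of 12 WT cerebellar arrays, 1 of 8 Ttpa-/- cerebellar arrays and 1 of 20 cortical arrays. The other Ttpa probe was above it on 1 array in all, of a Ttpa-/- cerebellum, and which part of the gene the allele lacks is not given in the sources used here. Each group lay within 1 of the 5 slides, by the slide barcode in the names of the deposited scanner outputs. Ageing in the cortex, the deficient diet in the WT cerebellum, and the deficient against the supplemented diet in the Ttpa-/- cerebellum were compared within a slide. In every other comparison slide and group cannot be told apart. In bulk tissue, fewer cells of a type and less RNA per cell cannot be told apart either.

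In the cortex of aged WT mice, 6 beta protocadherins were higher than in young WT mice and no clustered protocadherin was lower by the same test. They were Pcdhb2, Pcdhb3, Pcdhb4, Pcdhb8, Pcdhb9 and Pcdhb14, with rises of 1.58- to 2.28-fold, and 2 of them, Pcdhb2 and Pcdhb8, were tested through the aged group only. Of 30 members tested, 6 rose and 0 fell, against 1.59% of all probes tested that rose and 0.499% that fell. The median change was 0.44 over the 19 beta probes tested, -0.24 over 7 alpha probes and -0.18 over 4 gamma probes, and -0.025 over all probes tested. The sign of each cluster's median was the same under median and quantile scaling.

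Pcdhb9 had the largest change among the members tested in this comparison. Its levels were -2.29, -2.61, -2.38 and -2.46 in the young cortices and -1.25, -1.29, -1.25 and -1.20 in the aged ones. The groups did not overlap, and the change was 1.19 ± 0.11 (SE, adjusted p = 1.33e-08). Pcdhb3 stood at -0.89, -0.89, -0.71 and -0.70 in young and 0.26, 0.37, 0.32 and -0.19 in aged cortex. All aged arrays were above all young ones, although aged replicate 4 lay apart from the other three, and the change was 0.99 ± 0.17 (SE, adjusted p = 0.000297). Pcdhb14 gave -0.16, -0.36, -0.33 and -0.34 in young and 0.41, 0.12, 0.44 and 0.58 in aged cortex. Here too the groups were separate, with a change of 0.68 ± 0.13 (SE, adjusted p = 0.000832).

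The other calls rested on dimmer or more variable probes. Pcdhb2 was at -4.44, -3.62, -4.29 and -3.77 in young cortex, above background on 3 of 4 arrays, and at -3.28, -2.94, -2.58 and -3.30 in aged cortex. Tested through the aged group, its change was 1.004 ± 0.28 (SE, adjusted p = 0.0368). Pcdhb8 was at -4.55, -4.96, -4.03 and -4.43 in young cortex, where 1 of 4 arrays was above background, and at -3.70, -3.32, -3.76 and -3.06 in aged cortex, where all 4 were. It too was tested through the aged group, with a change of 1.03 ± 0.26 (SE, adjusted p = 0.0141). Pcdhb4 was at -1.69, -1.48, -1.39 and -2.23 in young and -1.09, -1.13, -0.80 and -1.15 in aged cortex, and young replicate 4 was the lowest of the 8. The change was 0.66 ± 0.19 (SE, adjusted p = 0.0428). For each of the 6 the young and aged arrays did not overlap. This fixes the exact two-sided permutation p of the 8 arrays at 0.0286, the smallest that 4 against 4 arrays allow. That p therefore adds nothing to the calls.

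Counted at any fold change, 9 members had an adjusted p under 0.05, against 4.15% of all probes. The 3 beyond the calls were also higher in aged cortex, Pcdhb6 by 0.45, Pcdhb7 by 0.44 and Pcdhb13 by 0.57. Young and aged arrays did not overlap for 10 members that were higher and 5 that were lower in aged mice, while 14.0% of all probes were separate in either direction. The lower ones were Pcdha8 (probe 2), Pcdhac2, the alpha constant probe, Pcdhb17 and Pcdhb18, with changes of -0.37 to -0.15, and the lowest adjusted p among them was 0.225, for Pcdhac2. Along the cluster, the 8 tested beta genes from Pcdhb2 to Pcdhb9 had changes of 0.44 to 1.19. Of the 7 tested from Pcdhb15 to Pcdhb22, 2 were above 0, in a range of -0.27 to 0.20. These stretches were chosen after the values were seen and are a description. Pcdha12 differed by -0.92 without passing the test. Young replicate 3 stood at 1.28, far above the next young array at -0.76, and without it the difference was -0.35.

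**Figure D1:**
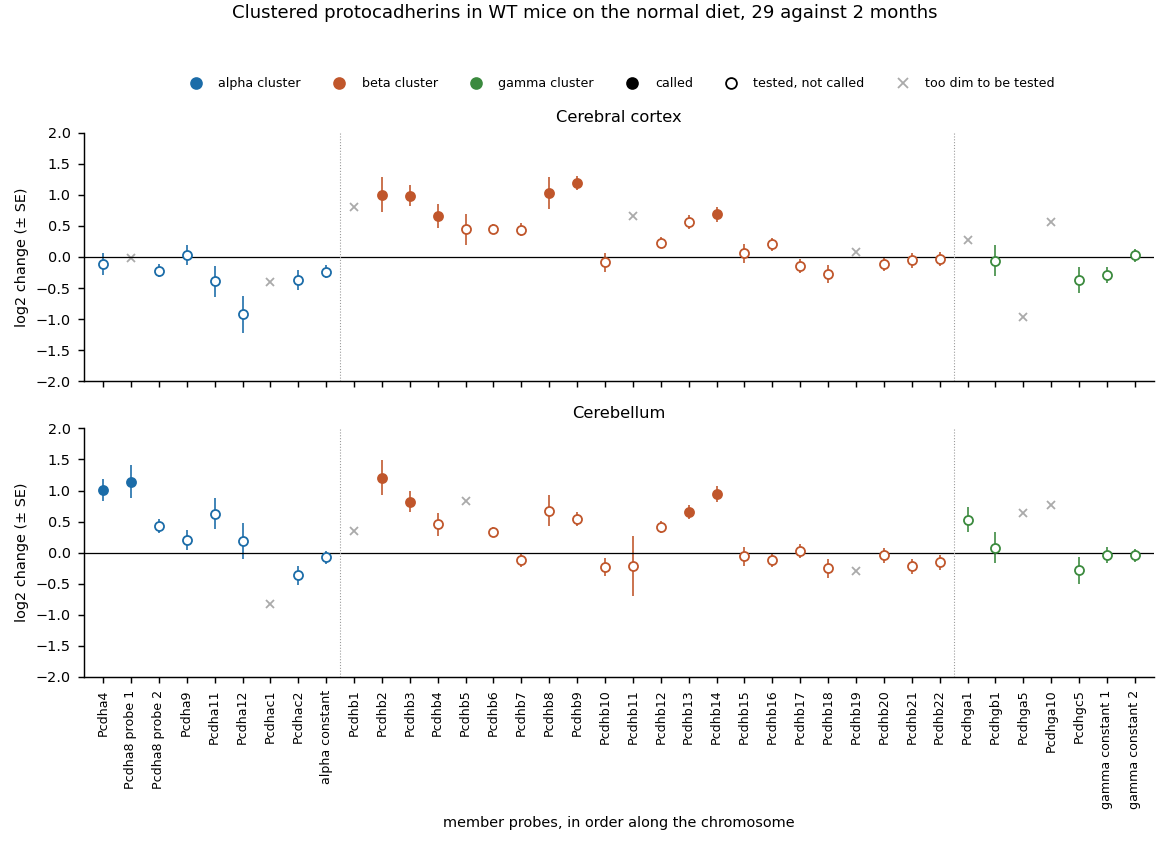
Change with age of each of the 38 member probes in WT mice on the normal diet, in the order of the probes along chromosome 18, for the cortex (top) and the cerebellum (bottom). The y axis is the log2 change of aged over young mice with its standard error, filled points passed the test and crosses were too dim to be tested; filled points are confined to the beta cluster in the cortex (6 of 6) and include 2 alpha probes, Pcdha4 and Pcdha8 probe 1, in the cerebellum.

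Calls for Pcdhb3 and Pcdhb9 were the same in 11 of 11 other ways of processing, and that for Pcdhb14 in 10 of 11, whereas Pcdhb2, Pcdhb4 and Pcdhb8 lost theirs under median scaling, normexp background correction, a fit of these groups alone and the methods' t-test with adjustment. Keeping dim probes also ended the calls for Pcdhb2 and Pcdhb4, and a replicate block that for Pcdhb4. Leaving out aged replicate 2 ended all 3 of these calls, with 3 of 6 left. Over the 8 omissions of 1 array, Pcdhb4 lost its call in 6, Pcdhb2 in 4 and Pcdhb8 in 3. Among the 11 ways, p values without adjustment could not end a call, and the deposited log2 values were nearly the values used here.

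In the cerebellum, 6 member probes were higher with age and 0 lower: Pcdha4, Pcdha8 (probe 1), Pcdhb2, Pcdhb3, Pcdhb13 and Pcdhb14. Pcdha8 (probe 1) and Pcdhb2 were tested through the aged group only. Of 32 members tested, 6 rose, where 3.99% of all probes rose and 1.04% fell. The median change was 0.32 over the 8 alpha probes tested and 0.028 over 19 beta probes, which became -0.034 under median scaling. It was -0.038 over 5 gamma probes and -0.010 over all probes tested. Alpha isoforms are thus among the calls here, beside beta genes.

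Pcdha4 was at -2.96, -3.16, -3.00 and -3.03 in young and -1.78, -1.97, -1.85 and -2.50 in aged cerebellum. The young arrays lay close together and below every aged one, and the change was 1.01 ± 0.18 (SE, adjusted p = 0.000163). The dimmer of 2 Pcdha8 probes, probe 1, was at -3.96, -3.82, -4.05 and -4.65 in young and -3.15, -3.03, -2.84 and -2.89 in aged cerebellum. Above background on 3 of 4 young arrays, it changed by 1.14 ± 0.26 (SE, adjusted p = 0.00287). Probe 2 of the same gene, 149 bases away and much brighter, stands for Pcdha8 and changed by less, 0.43 ± 0.11 (SE, adjusted p = 0.00948), below the fold for a call. Its groups did not overlap either.

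Among the beta genes, Pcdhb14 was at 0.11, -0.0096, 0.17 and 0.089 in young and 0.97, 0.97, 1.10 and 1.12 in aged cerebellum. All aged arrays were higher, and the change was 0.95 ± 0.13 (SE, adjusted p = 1.93e-06). Pcdhb3 was at -1.78, -1.27, -0.88 and -1.14 in young cerebellum, the widest spread of the called genes, and at -0.42, -0.45, -0.24 and -0.67 in aged cerebellum. Its change was 0.82 ± 0.17 (SE, adjusted p = 0.000931). Pcdhb13 was at -2.36, -1.98, -1.90 and -1.82 in young and -1.38, -1.40, -1.23 and -1.43 in aged cerebellum, a change of 0.65 ± 0.12 (SE, adjusted p = 0.000157). Pcdhb2 was not well above background on any young cerebellar array, at -5.15, -5.06, -4.84 and -5.52, and was above it on all 4 aged ones, at -3.83, -3.99, -3.52 and -4.42. It was at least 1.79-fold higher in aged cerebellum, with an adjusted p of 0.00403. This bound sets the aged mean against, on each young array, the higher of the probe's own signal and the lowest signal of any probe well above background.

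At any fold change, 10 members had an adjusted p under 0.05, against 11.0% of all probes, and all 10 were higher. They included Pcdhb9, with levels of -2.55, -2.32, -2.35 and -2.32 in young and -2.03, -1.92, -1.80 and -1.64 in aged cerebellum and a change of 0.54 ± 0.11 (SE, adjusted p = 0.00114). Pcdhb6 (0.33) and Pcdhb12 (0.41) were the other beta genes of this kind. Arrays were separate for 12 members that were higher and 1 that was lower, Pcdhac2, while 19.1% of all probes were separate. Here the 7 tested genes from Pcdhb15 to Pcdhb22 had changes between -0.25 and 0.028, and none was called.

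Some cell type markers moved with age in these samples. In the cerebellum, 4 of 5 microglial markers rose (list mean 0.48 in young and 1.40 in aged mice, with array means of 0.26 to 0.71 and 1.31 to 1.49), and Gfap, the filament protein of reactive astrocytes, rose by 1.87. Of 8 choroid plexus markers tested, 3 fell, Ttr (a change of -7.70), Kcne2 (-5.73) and Kl (-2.30). The mean of the 9-gene list was -0.24 in young cerebellum, with arrays from -1.75 to 2.45, and -2.58 in aged cerebellum, from -2.86 to -2.34. In the cortex Gfap rose by 1.51 and 0 of 5 microglial markers passed the test, with 0 at an unadjusted p under 0.05 (list mean 2.47 and 2.50). The 6 neuron markers had list means of 5.72 in young and 5.57 in aged cortex, with overlapping arrays. In the cerebellum 0 of 6 markers of granule cells, its most abundant neurons, were called, but all 6 were lower in aged mice. Of the 6, 5 had an unadjusted p under 0.05, beside 7032 of 30627 of all probes tested there. The granule cell list mean was 4.49 in young (arrays from 4.34 to 4.60) and 4.07 in aged cerebellum (3.94 to 4.18). The Purkinje cell list was also lower without overlap, at 5.64 and 5.43, with 0 of 5 markers called and 2 at an unadjusted p under 0.05. In both regions Gpr17, a marker of oligodendrocyte precursors, fell by 0.84. The rest of that list moved little, Pdgfra from 1.36 to 1.38 and Cspg4 from 0.35 to 0.37 in cortex. In cerebellum they went from -0.22 to -0.093 and from -0.96 to -0.98. Among astrocyte markers besides Gfap, Slc1a2 was lower in aged cortex (4.12 young, 3.93 aged) and Slc1a3 in aged cerebellum (5.41 young, 5.10 aged). The remaining astrocyte markers were higher in aged mice in each region. The part of these shifts in the protocadherin changes was not tested.

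The change with age was compared between the regions as an interaction, cortex minus cerebellum. Of 33 members tested, 3 differed, against 1.46% of all probes. The median difference was -0.83 over 8 alpha probes and -0.022 over all probes tested. Pcdha4 changed by -0.12 in cortex and 1.01 in cerebellum, a difference of -1.13 ± 0.25 (SE, adjusted p = 0.0122). Pcdha8 (probe 2) changed by -0.22 and 0.43, a difference of -0.65 ± 0.16 (SE, adjusted p = 0.0231). Both alpha isoforms were thus the higher in the aged cerebellum, relative to the change in cortex. Pcdhb9 went the other way, with 1.19 in cortex and 0.54 in cerebellum, a difference of 0.65 ± 0.16 (SE, adjusted p = 0.0225). Pcdhb7 had an adjusted p of 0.0348 with a difference of 0.56, below the fold for a call, and 1.83% of all probes had an adjusted p under 0.05 at any fold change. The beta genes that rose in both regions did not differ by this test: the difference was 0.16 for Pcdhb3 (adjusted p = 0.913), -0.27 for Pcdhb14 (adjusted p = 0.647) and -0.20 for Pcdhb2 (adjusted p = 0.947), which does not show that they changed alike. Under median scaling 0 of the 3 differences were called and under normexp 1, and they were compared across slides.

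Levels in the other aged groups extended the comparison with the young mice. For Pcdhb9, the 16 aged cortical arrays of all genotypes and diets were at -1.48 or above and the 4 young ones at -2.29 or below. In the cerebellum its 16 aged arrays were at -2.23 or above and the young ones at -2.32 or below. Pcdhb12, whose changes were small, was also separate in both regions, with aged arrays from -0.56 in cortex and -0.97 in cerebellum and young arrays up to -0.63 and -1.01. In the cortex the aged arrays were also all higher for Pcdhb3 (aged from -0.67, young up to -0.70) and Pcdhb6 (aged from 0.85, young up to 0.63). There they were all lower for 5 members: Pcdha8 probe 2 (aged up to 1.31, young from 1.39), Pcdhac2 (-0.78 and -0.73), the alpha constant probe (3.97 and 4.01), Pcdhb17 (0.73 and 0.75) and Pcdhb18 (-0.96 and -0.94). In the cerebellum the aged arrays were also all higher for Pcdha4 (aged from -2.84, young up to -2.96), Pcdha8 probe 1 (-3.79 and -3.82) and probe 2 (0.77 and 0.74), Pcdhb13 and Pcdhb14 (aged from 0.42, young up to 0.17), and for Pcdhb2 and Pcdhb5, which were not above background in young cerebellum. For Pcdhb5 the ranges nearly touched (aged from -5.284, young up to -5.287), and 6 of 20 cerebellar arrays were above background. The aged cerebellar arrays were all lower for Pcdhac2 (aged up to -1.10, young from -1.06). The aged Ttpa-/- and deficient groups have no young counterpart, so these ranges describe levels and carry no test. The share of all probes separate in this way was not counted, so the members listed are not set apart from other probes. Several gaps were narrow, as for Pcdhb17 in cortex (0.73 and 0.75).

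**Figure D2:**
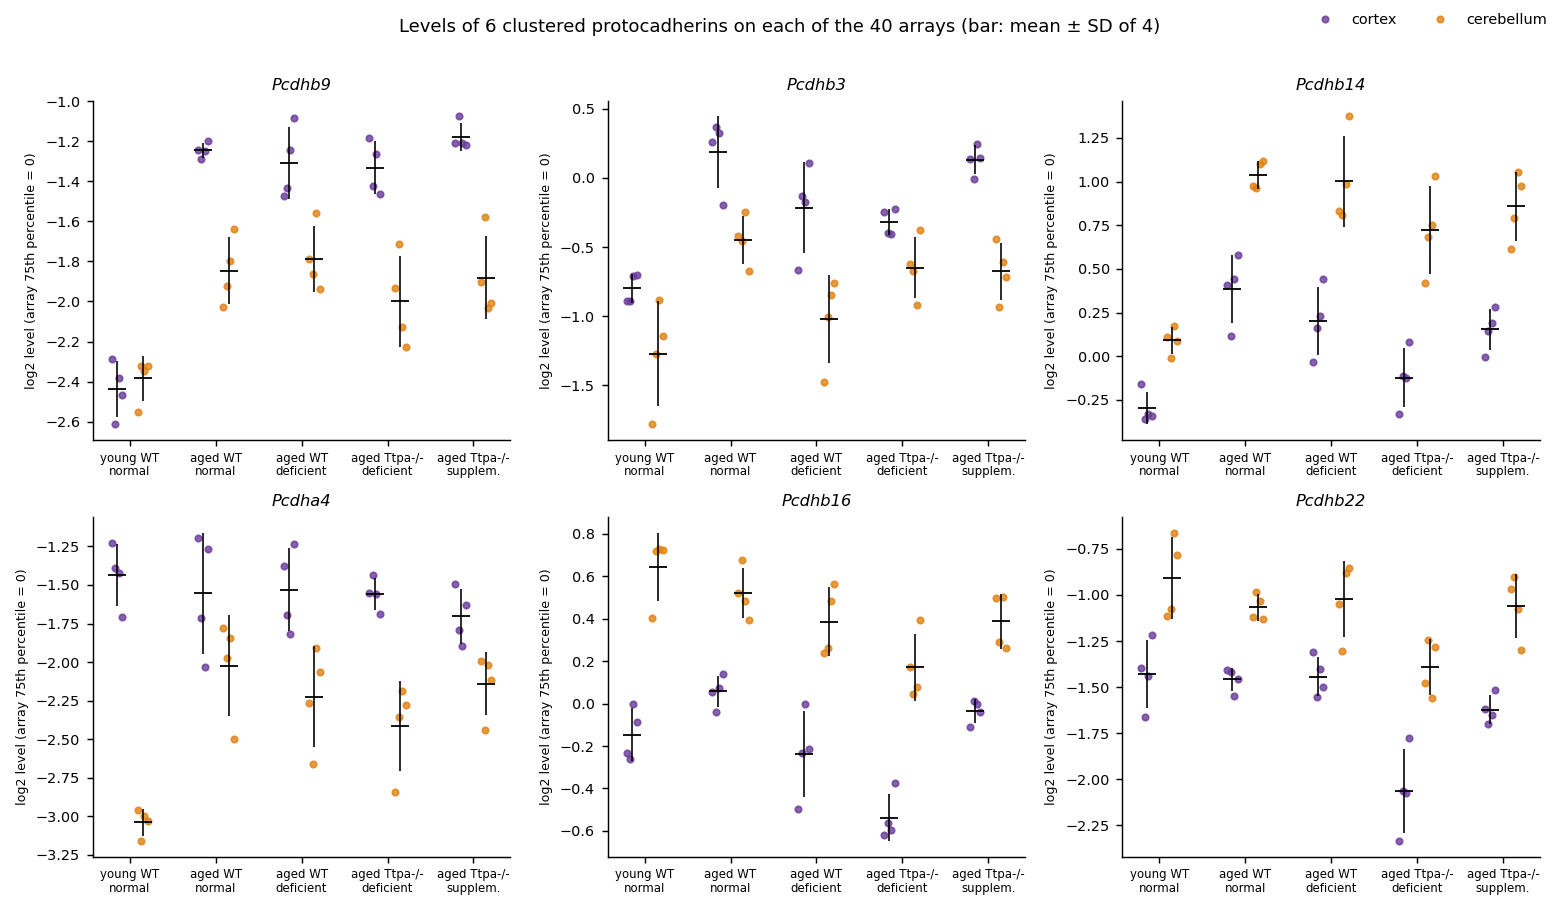
Levels of Pcdhb9, Pcdhb3, Pcdhb14, Pcdha4, Pcdhb16 and Pcdhb22 on each of the 40 arrays, as log2 signal with the array's 75th percentile at 0, with cortex and cerebellum side by side in each of the 5 conditions and the mean ± SD of 4 arrays as a bar. All young Pcdhb9 arrays lie below all aged ones in each region, and the Ttpa-/- deficient cortex has the lowest Pcdhb22 arrays of that region, at -2.34 to -1.78.

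Aged Ttpa-/- mice on the deficient diet had lower levels of 6 clustered protocadherins in the cortex than aged WT mice on the normal diet. The 6 were Pcdha9, an alpha isoform, and Pcdhb15, Pcdhb16, Pcdhb18, Pcdhb21 and Pcdhb22, all from the 3' part of the beta cluster. Of 30 members tested, 0 were higher and 6 lower, against 3.14% of all probes that were higher and 1.60% that were lower. The beta median was -0.47, the alpha median -0.23 and the gamma median 0.29, beside -0.024 over all probes tested, with the same signs under median and quantile scaling. This comparison and that of ageing in the cortex share the aged WT arrays on the normal diet.

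Pcdhb16 was at 0.056, -0.038, 0.074 and 0.14 in WT cortex on the normal diet and at -0.62, -0.56, -0.59 and -0.37 in Ttpa-/- cortex on the deficient diet. The groups were well apart and the change was -0.60 ± 0.10 (SE, adjusted p = 0.000201). Pcdhb21 was at 1.25, 1.11, 1.22 and 1.38 in WT and 0.64, 0.49, 0.37 and 0.92 in Ttpa-/- cortex. The change was -0.63 ± 0.12 (SE, adjusted p = 0.000682), with no overlap. Pcdhb22 was at -1.41, -1.42, -1.55 and -1.46 in WT and -2.34, -2.07, -2.08 and -1.78 in Ttpa-/- cortex, a narrow group against a lower and wider one. The change was -0.61 ± 0.12 (SE, adjusted p = 0.000695).

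Pcdhb18 was at -0.995, -0.96, -1.02 and -1.19 in WT and -1.98, -1.64, -1.84 and -1.46 in Ttpa-/- cortex, with a change of -0.69 ± 0.15 (SE, adjusted p = 0.00212). Pcdhb15 was at -1.83, -1.88, -1.69 and -1.98 in WT and -2.63, -2.43, -2.16 and -2.77 in Ttpa-/- cortex, with a change of -0.65 ± 0.15 (SE, adjusted p = 0.00286). Pcdha9 was at -1.04, -1.07, -1.03 and -0.98 in WT and -1.56, -1.88, -1.75 and -1.87 in Ttpa-/- cortex, with a change of -0.73 ± 0.16 (SE, adjusted p = 0.00221). For none of the 6 did an array of one group reach the other. This fixes the exact permutation p at 0.0286 for each, which adds nothing to the calls.

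At any fold change 12 members had an adjusted p under 0.05, against 19.0% of all probes, and all 12 were lower in the Ttpa-/- cortex. Among them were the alpha constant probe, -0.38, and 2 of the genes that rose with age, Pcdhb3 (-0.51) and Pcdhb14 (-0.51). Arrays were separate for 14 members that were lower and 2 that were higher, Pcdhb12 (0.17) and the gamma constant probe 2 (0.28), where 23.4% of all probes were separate. All 7 tested genes from Pcdhb15 to Pcdhb22 were lower, by -0.69 to -0.33, each with an adjusted p under 0.05. The 8 from Pcdhb2 to Pcdhb9 were at -0.54 to -0.087, and 0 of them were called. Of the cell type markers, 0 of 6 of neurons were called in this comparison. An unadjusted p under 0.05 was seen for 9476 of 28913 of all probes tested. Near that share, 2 of the 6 neuron markers had one, both lower. The neuron list mean was 5.39 in the Ttpa-/- cortex (arrays from 5.30 to 5.49) and 5.57 in the WT cortex (5.50 to 5.63), so that these arrays did not overlap. Of the others, 0 of 5 of oligodendrocytes (median change -0.46) and 0 of 5 of astrocytes (median -0.30) were called, with 3 of each list at an unadjusted p under 0.05, all lower. Their part in the protocadherin values was not tested.

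The changes were near the fold threshold and depended on the processing. Under median scaling 1 of the 6 was still called and under normexp 0, and 4 to 7 members were called when 1 array was left out.

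**Figure D3:**
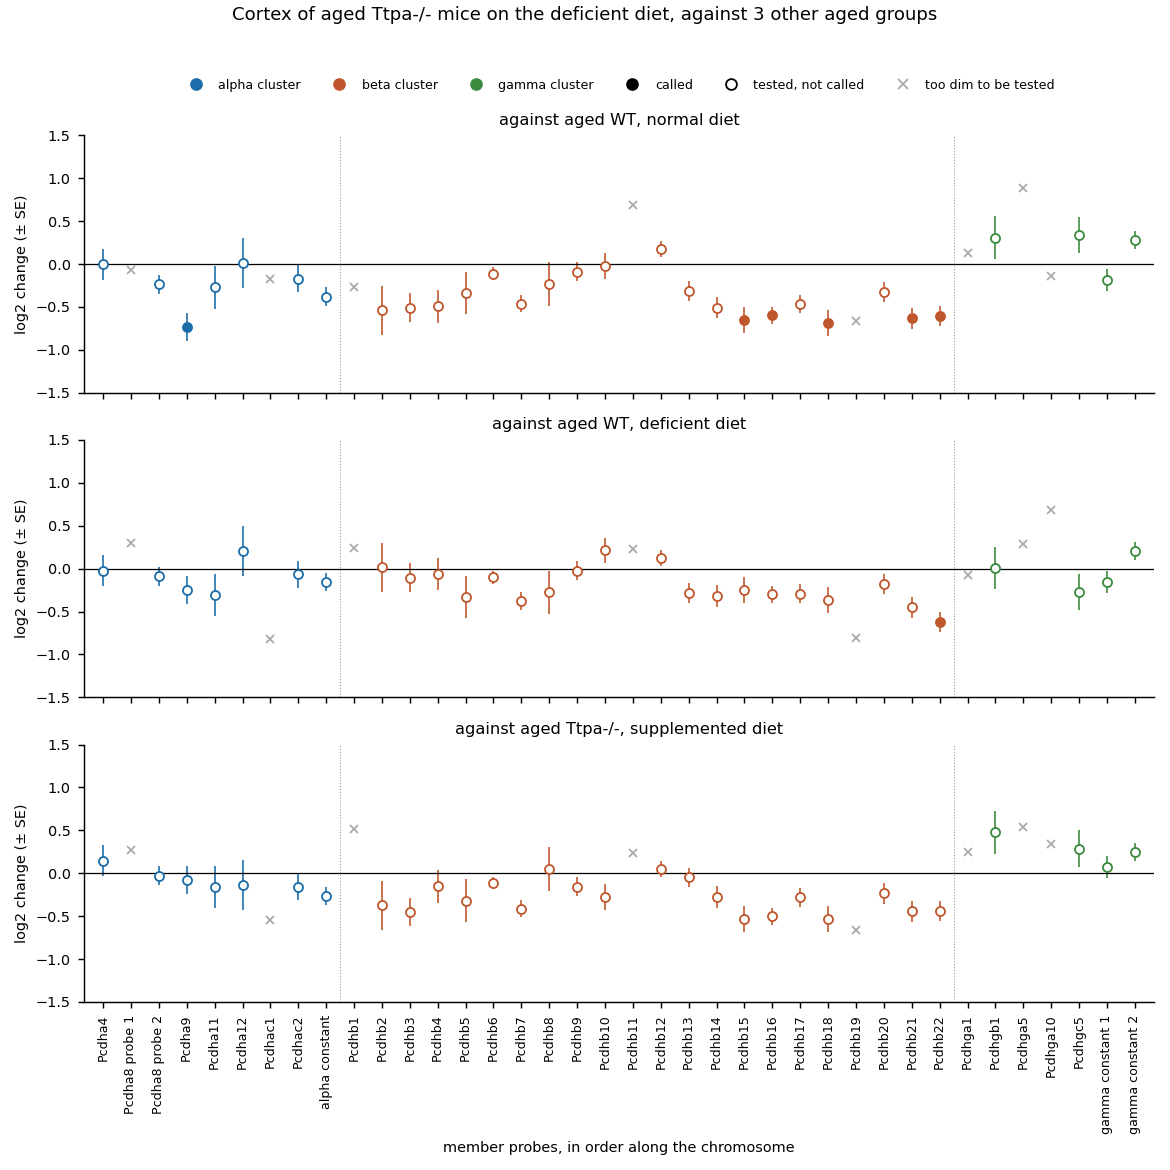
Change of each member probe in the cortex of aged Ttpa-/- mice fed the deficient diet, set against aged WT mice on the normal diet (top), aged WT mice on the deficient diet (middle) and supplemented Ttpa-/- mice (bottom), as log2 change with its standard error, in order along the chromosome. Filled points passed the test (6, 1 and 0 in the 3 panels), and the 7 tested genes from Pcdhb15 to Pcdhb22 lie below 0 in each panel.

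Against WT mice on the same deficient diet, 1 of 30 members was lower in the Ttpa-/- cortex and 0 were higher, with 3.07% of all probes called. It was Pcdhb22, at -1.31, -1.56, -1.40 and -1.498 in WT and -2.34, -2.07, -2.08 and -1.78 in Ttpa-/- cortex. The groups were separate, with a change of -0.62 ± 0.12 (SE, adjusted p = 0.00113). Its 4 values in the Ttpa-/- deficient cortex were the lowest of all 20 cortical arrays, the next being -1.70. Pcdhb7, Pcdhb16 and Pcdhb21 also had an adjusted p under 0.05, with -0.38, -0.30 and -0.45, which makes 4 of 30 members beside 13.0% of all probes, a share near the background. The call for Pcdhb22 was lost under median scaling, normexp, array weights, a fit of these groups alone and the methods' t-test with adjustment, and without WT replicate 1 or Ttpa-/- replicate 1.

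Within the Ttpa-/- cortex, the deficient diet was compared with the supplemented one. By limma 0 of 30 members were called, where 3.31% of all probes were, and 11 had an unadjusted p under 0.05, 10 of them lower on the deficient diet, beside 28.2% of all probes. At any fold change 6 had an adjusted p under 0.05, against 14.1% of all probes. These were Pcdhb7 (-0.41), Pcdhb15 (-0.53), Pcdhb16 (-0.50), Pcdhb18 (-0.54), Pcdhb21 (-0.44) and Pcdhb22 (-0.44), all lower and all short of 1.5-fold. For 7 members the arrays of the diets were separate, each lower on the deficient diet, while 19.0% of all probes were separate. The methods' t-test called 0 with adjustment.

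The milder comparisons called no member in the cortex. WT mice on the deficient against the normal diet gave 0 of 30, where 0.223% of all probes were called, and 8 members had an unadjusted p under 0.05, of which 7 were lower on the deficient diet, beside 15.6% of all probes. Pcdhgc5 was the 1 that was higher, 0.61 ± 0.21 (SE, adjusted p = 0.156). Ttpa-/- mice on the supplemented diet against WT mice on the normal diet gave 0 of 30, where 0.0920% of all probes were called, and 2 members, Pcdha9 and Pcdhb13 (-0.27), had an unadjusted p under 0.05, beside 8.51% of all probes. Pcdha9 had the larger of these changes, from -1.04, -1.07, -1.03 and -0.98 in WT to -1.79, -1.93, -1.61 and -1.39 in Ttpa-/- cortex. The arrays were separate but the test was not passed, at -0.65 ± 0.16 (SE, adjusted p = 0.0857). The methods' t-test with adjustment also called 0 in both comparisons, and without adjustment 1 in each, Pcdhgc5 and Pcdha9.

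In the cerebellum none of the genotype and diet comparisons called a member. Ttpa-/- mice on the deficient diet against WT mice on the normal diet gave 0 of 31 (4.46% of all probes called), with 8 members at an unadjusted p under 0.05, all lower, beside 27.5% of all probes. Pcdhb15 (-0.49), Pcdhb16 (-0.35) and Pcdhb21 (-0.45) had an adjusted p under 0.05, beside 13.2% of all probes. Both shares are near the background, and the 7 tested genes from Pcdhb15 to Pcdhb22 were at -0.49 to -0.19. The difference between the regions was tested as well and called 0 of 33 members, where 3.38% of all probes were called; 3 had an unadjusted p under 0.05, Pcdha9, the alpha constant probe and Pcdhb7, of which Pcdhb7, at -0.56, also had an adjusted p under 0.05. Over all probes these shares were 22.6% and 7.04%. Among the genes called in the cortex, this difference, cortex minus cerebellum, was -0.25 for Pcdhb16 (adjusted p = 0.307), -0.42 for Pcdhb18 (adjusted p = 0.239) and -0.56 for Pcdha9 (adjusted p = 0.138). Over the 7 tested genes from Pcdhb15 to Pcdhb22, which hold the remaining called genes, it ran from -0.42 to -0.097. A lower level in the cortex alone is therefore not shown.

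Against WT mice on the same deficient diet, 0 of 31 members were called in the Ttpa-/- cerebellum (4.94% of all probes), with 9 at an unadjusted p under 0.05, near the 28.1% of all probes. Pcdhb21 (-0.43) and Pcdhb22 (-0.37) had an adjusted p under 0.05, as did 12.8% of all probes. Deficient against supplemented Ttpa-/- cerebellum, compared within a slide, gave 0 of 31 (0.343% of all probes) and 7 at an unadjusted p under 0.05, all lower on the deficient diet, beside 11.6% of all probes. Pcdhb21, the 1 member with an adjusted p under 0.05 (0.767% of all probes), was at 1.34, 1.08, 1.43 and 1.19 on the supplemented and 0.60, 0.68, 0.62 and 0.998 on the deficient diet. These arrays did not overlap, with a change of -0.54 ± 0.12 (SE, adjusted p = 0.0237). The deficient diet in WT cerebellum, also within a slide, gave 0 of 32 (1.27% of all probes), with 4 at an unadjusted p under 0.05, Pcdhb2, Pcdhb3, Pcdhb10 and Pcdhgc5, beside 21.0% of all probes. Pcdhb3 was the one with an adjusted p under 0.05, at -0.57 ± 0.17 (SE, adjusted p = 0.045), beside 4.58% of all probes. Supplemented Ttpa-/- against WT cerebellum gave 0 of 31 (4.91% of all probes) and 1 at an unadjusted p under 0.05, Pcdhgb1, at 0.52, beside 28.5% of all probes. With adjustment the methods' t-test called 0 in each of the diet and genotype comparisons of the cerebellum. Members named for an unadjusted p alone, here and elsewhere, were chosen after the values were seen.

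Between the regions, 7 of 29 members tested in young WT mice were higher in the cortex and 1 was lower, beside 19.1% and 19.3% of all probes. Pcdha4, Pcdha12 and Pcdhgc5 had the largest differences among those above background on all 8 arrays, Pcdhb5 was measured in the cortex only, and Pcdhb16 was the one that was lower. Of the 7, 5 were alpha probes, and the alpha median was 0.73, beside 0.025 over all probes tested. In aged WT mice on the normal diet 6 of 33 were higher and 3 lower, beside 15.8% and 17.8% of all probes, and the alpha median was 0.30, beside -0.012. In total these counts are below the shares of all probes, and the values that follow describe the members without setting them apart.

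Pcdhb5 was at -3.82, -3.51, -3.92 and -3.94 in young cortex and not well above background in any young cerebellum, at -6.53, -5.29, -5.46 and -5.44. It was at least 1.98-fold higher in the cortex, with an adjusted p of 6.39e-08. Since it was tested through the cortex it had to be the brighter there. Pcdha4 was at -1.23, -1.39, -1.42 and -1.71 in young cortex and -2.96, -3.16, -3.00 and -3.03 in young cerebellum. The regions were far apart, by 1.60 ± 0.18 (SE, adjusted p = 2.82e-09). In aged WT mice on the normal diet the same gene was at -1.20, -1.72, -2.03 and -1.27 in cortex and -1.78, -1.97, -1.85 and -2.50 in cerebellum, which overlapped, and the difference was 0.47 ± 0.18 (SE, adjusted p = 0.0259).

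Pcdha12 was higher in young cortex by 1.52, and by 0.95 without cortical replicate 3, the array that stood apart. Pcdhb16 was lower in young cortex, at -0.23, -0.26, -0.000022 and -0.089, than in young cerebellum, at 0.40, 0.72, 0.73 and 0.73. The difference was -0.79 ± 0.10 (SE, adjusted p = 3.50e-08). In aged WT mice on the normal diet the largest differences toward the cortex were those of Pcdhb5 (1.504), Pcdhgc5 (1.08) and Pcdhb7 (0.98). Those toward the cerebellum were Pcdha8 probe 1 (-1.11), Pcdhga1 (-0.76) and Pcdhb14 (-0.65). The brighter Pcdha8 probe 2 was not called there. Pcdha8 probe 1 and Pcdhga1 were each above background on 1 of 4 cortical arrays there and were tested through the cerebellum. Pcdhb5 and Pcdhgc5 were each above it on 2 of 4 cerebellar arrays and were tested through the cortex.

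**Figure D4:**
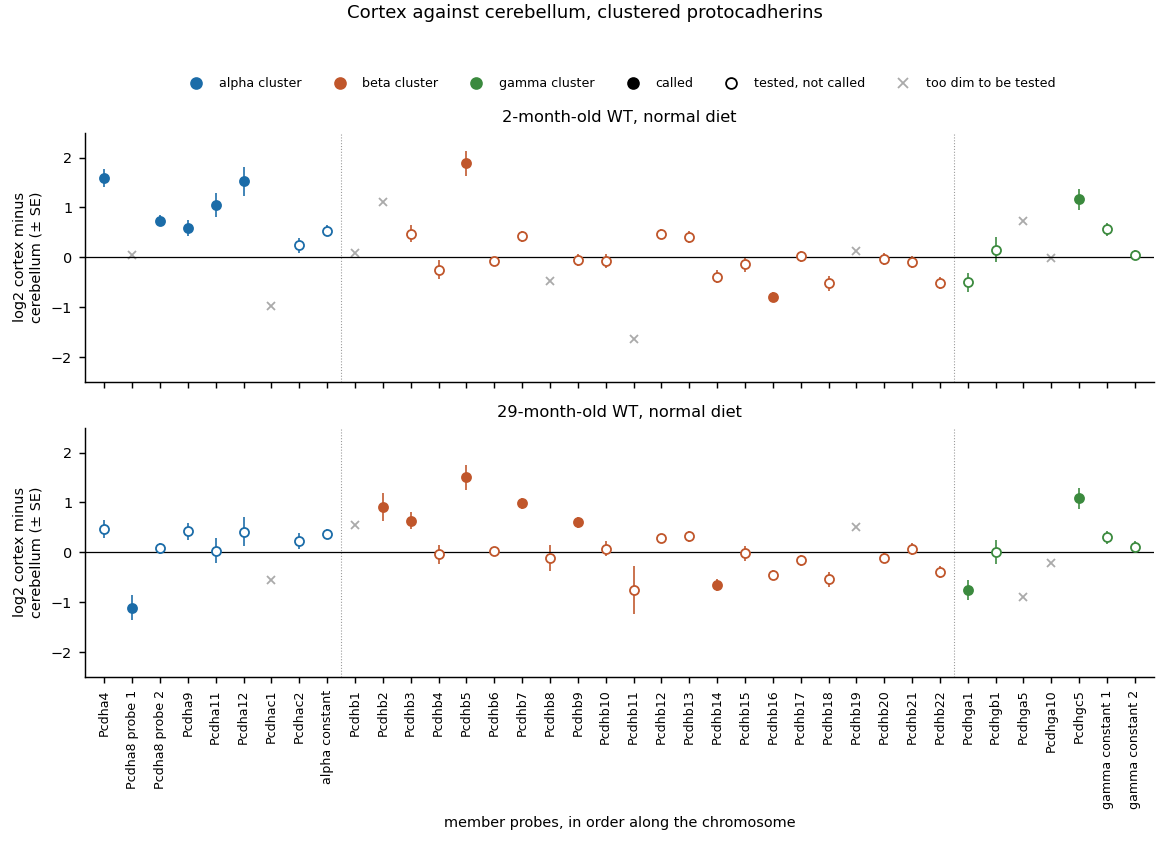
Difference between cortex and cerebellum of each member probe in young (top) and aged (bottom) WT mice on the normal diet, as log2 level in cortex minus that in cerebellum with its standard error, in order along the chromosome. Filled points passed the test, 8 in young and 9 in aged mice; Pcdhb5 is plotted at its fitted difference but was above background on 0 of 4 young and 2 of 4 aged cerebellar arrays, so its place above the other points is not a rank.

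In the other aged groups, WT mice on the deficient diet had 5 members higher and 4 lower in the cortex of 31 tested, with 43.3% of all probes called. This split became 11 higher and 1 lower under median scaling, which moved the median of all probes by 0.29 there, and 8 and 4 under quantile normalization. Ttpa-/- mice had 4 higher and 6 lower of 33 on the deficient diet (41.9% of all probes), or 5 and 4 under median scaling, and 5 and 5 of 33 on the supplemented diet (37.1%). Pcdhb5 was higher in the cortex by 1.36 in WT mice on the deficient diet and by 1.25 in Ttpa-/- mice on the supplemented diet, above background on 1 and 3 of 4 cerebellar arrays. In Ttpa-/- mice on the deficient diet it was at least 2.01-fold higher, as it was above background on 0 of 4 cerebellar arrays, and Pcdhgc5 was higher by 1.12. Pcdhb5 was thus tested through the cortex in all 3 groups, as Pcdhgc5 was in both Ttpa-/- groups. Pcdhga1 in both Ttpa-/- groups and Pcdhgb1 in the supplemented one were called lower in the cortex and tested through the cerebellum. Pcdhb14 was lower in the cortex of all 3 groups, by -0.80, -0.84 and -0.71, and so was Pcdhb18, by -0.69, -0.97 and -0.60, but in WT mice on the deficient diet neither was called under median scaling. Pcdha8 probe 1 was also called lower in the cortex of all 3 groups, where it was above background on 1 of 4 arrays, and was tested through the cerebellum. With normexp that call was lost in each group, at -0.36, -0.32 and -0.38. Probe 2, which stands for Pcdha8, was not called between the regions in any aged group. Its aged arrays ran from 0.72 to 1.31 in cortex and from 0.77 to 1.28 in cerebellum.

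Constant probes were placed at the shared 3' end of their cluster by position alone. Whether each reads all isoforms of its cluster was not tested, and the 2 gamma ones differed, as given below. The alpha constant probe was at 4.13, 4.06, 4.01 and 4.18 in young and 3.97, 3.86, 3.79 and 3.80 in aged WT cortex. All aged arrays were lower but the change, -0.24 ± 0.11 (SE, adjusted p = 0.26), did not pass the test. In the Ttpa-/- deficient cortex this probe was at 3.39, 3.42, 3.37 and 3.72, a change of -0.38 ± 0.11 (SE, adjusted p = 0.0118) from aged WT mice, under 1.5-fold. It was higher in cortex than in cerebellum by 0.54 in young and 0.37 in aged WT mice, again under 1.5-fold. With age in the cerebellum it changed by -0.073.

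The gamma constant probe 1 changed with age by -0.29 in cortex and -0.038 in cerebellum. The gamma constant probe 2, the brightest, changed by 0.024 and -0.045. In the Ttpa-/- deficient cortex against WT mice on the normal diet the former changed by -0.18 and the latter by 0.28, in opposite directions. None of these passed the test. Against the cerebellum, probe 1 was higher in the cortex by 0.56 in young and 0.31 in aged WT mice, and probe 2 differed by 0.048 and 0.12. Across the genotype and diet comparisons of aged mice within a region, no constant probe and no C-type probe was called.

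Of the C-type isoforms, Pcdhac1 was too dim to be tested anywhere. The serotonergic markers Slc6a4 and Tph2 were each above background on 1 of 40 arrays, so the cells known for Pcdhac2 left little signal. Pcdhac2, read by its own variable exon, was at -0.67, -0.42, -0.73 and -0.73 in young and -0.78, -0.82, -1.42 and -1.02 in aged WT cortex. Every aged array was lower, yet the change of -0.37 ± 0.16 (SE, adjusted p = 0.225) did not pass the test. In the cerebellum the values were -0.71, -0.90, -0.84 and -1.06 in young and -1.18, -1.12, -1.10 and -1.57 in aged mice, again separate and lower, with -0.36 ± 0.16 (SE, adjusted p = 0.146). Pcdhgc5, whose protein binds GABA-A receptors, changed with age by -0.37 in cortex (adjusted p = 0.447) and -0.29 in cerebellum (adjusted p = 0.49). It was at -3.40, -3.12, -3.05 and -3.09 in young cortex and -4.12, -4.51, -4.44 and -4.24 in young cerebellum. The regional difference was 1.17 ± 0.21 (SE, adjusted p = 1.72e-05), and Pcdhgc5 was called higher in the cortex in all 5 conditions, by 0.84 to 1.22, in 3 of them through the cortex only.

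Genes that act on the clusters or with their proteins are set beside these shares of all probes tested. With age 1.59% rose and 0.499% fell in the cortex, and 3.99% rose and 1.04% fell in the cerebellum. In the Ttpa-/- deficient cortex against WT mice on the normal diet 3.14% were higher and 1.60% lower. An unadjusted p under 0.05 with age in the cortex was seen for 4177 of 28043. Of 19 regulators of promoter choice and chromatin on the arrays, among them Ctcf, the cohesin subunits and the DNA methyltransferases, 0 of 19 tested were called with age in cortex by limma, with 4 at an unadjusted p under 0.05. In the cerebellum Tet1, an enzyme that oxidises methylated cytosine, was lower by -0.64. In the Ttpa-/- deficient cortex against WT mice on the normal diet Tet1 was lower by -0.59 and its relative Tet3 higher by 0.82. Of 23 partners, processing enzymes and signalling genes, 0 of 22 tested were called with age in cortex, with 4 at an unadjusted p under 0.05, Ptk2, Ret, Fyn and Marcks. Ptk2b, the kinase Pyk2 that binds protocadherin tails, rose by 1.63 with age in the cerebellum. In the Ttpa-/- deficient cortex Ncstn, a subunit of the gamma-secretase that cleaves these proteins, was higher by 1.11, and Lrp6, a Wnt coreceptor, was lower by -0.62.

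Protocadherins outside the clusters and related large cadherins were 21 genes. The shares of all probes given for the lists above apply here too. With age 0 of 20 tested were called in the cortex, with 5 at an unadjusted p under 0.05, Pcdh10, Pcdh20, Fat3, Fat4 and Celsr1. In the cerebellum 2 rose, Cdhr1 by 2.78 and Pcdh8 by 1.14, and Pcdh12, an endothelial protocadherin, fell by 1.40. In the Ttpa-/- deficient cortex Pcdh1 was higher by 0.76. Of 15 genes that neighbour the clusters, Cd14, a coreceptor of the innate immune response to bacterial lipopolysaccharide, rose with age in both regions, by 0.85 in cortex and 1.29 in cerebellum, and no other neighbour was called with age.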

How the data were processed

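RNA was isolated with a mirVana kit, labelled with Cy3 and hybridised to 40 Agilent 1-colour arrays. The authors deposited 1 scanner output per array, from Feature Extraction 10.7.3.1 per the file headers (10.1.1.1 in the submitters' processing notes). Its processed signal, an intensity, had local background subtracted and spatial trends removed by the scanner software, with no scaling between arrays; the deposited mean signal and background are unprocessed intensities. Flags for background and outlier spots are 0 or 1 per the file headers. A deposited table of log2 values matched the log2 intensity less the array's 75th percentile, centred per probe, to a median absolute difference of 0.000915.

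Flagged spots (95 to 148 per array) were dropped, repeats averaged, and 55589 of 55681 probes kept. A probe was above background when at least 50% of its spots were. Signals were scaled to the array's 75th percentile (365 to 925) on the log2 scale. Groups came from the labels. They were compared with limma 3.58.1 in R 4.3.3 (data.table, version 1.17.8), fitting a mean per group over the 40 arrays, without a block, and with Benjamini-Hochberg adjustment. The log2 scale and the 1.5-fold threshold follow the methods, which state a global normalization without its kind and, for data in general, a t-test for 2 groups, run here as an alternative. Precision is limited by 4 arrays per group, and the model was tested on simulated data. Figures were drawn with matplotlib 3.10.9 in Python 3.11.15.

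Members and gene lists were chosen with earlier results of these data known. Up to 6 called members are all named; of more, the 3 largest rises and falls are. C-type and constant probes are described throughout, and genes of other lists where called. Pcdha8 probe 2, the brighter, stands for its gene. All 38 probe transcripts were found under the same symbol in a reference list of names, which is of another build than the mm9 positions and gave names only. No sequence is printed.

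Other ways of processing were scaling to the median, quantile normalization, background correction by normexp (offset 50), the deposited log2 values, keeping dim probes, a replicate block, weighting arrays, fitting 2 groups on their own, p values without adjustment, the methods' t-test adjusted or not, and omitting each array in turn. Same-numbered arrays deviated together, with each of 4 pair correlations over 0.1, in Ttpa-/- cortex between diets (0.102 to 0.450) and between the regions of Ttpa-/- mice on the deficient diet (0.138 to 0.480). The labels do not say that a number marks a mouse. A slide block could not be fitted, since each group lies within 1 slide. Results for some genes of the fixed lists are not reported here.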

Additional observations from a re-analysis of the deposited data

Results flagged for a closer look

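Among 37 groups of 4 arrays looked at for members the text describes, 1 array stood apart from its group by Dixon's ratio: Pcdhb14 in young WT normal cortex replicate 1, at -0.16 with the nearest array at -0.33 and a gap of 0.847 of the group's range. Chance flags about 1 in 20 groups. The array was the highest of the young group and still below every aged one.

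The change with age differed between the regions by the interaction test for Pcdha4 (-1.13, cortex minus cerebellum), Pcdha8 probe 2 (-0.65) and Pcdhb9 (0.65).

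Probes inside the clusters that carry other names, and so were not counted as members, also passed the test. ENSMUST00000097608, which lies before Pcdhga1, rose with age by 0.94 in cortex and 0.89 in cerebellum. A_55_P2106583, beside the Pcdha8 probes, rose with age by 1.20 in cerebellum, as Pcdha8 probe 1 did there. TC1627912, beside Pcdhac1, was higher by 1.06 in supplemented Ttpa-/- than in WT cerebellum on the normal diet.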

How the results depend on the processing

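Counts of called members stayed within 1.5 times of those given above in 172 recomputed cases and moved further in 33. Of recomputed calls of single members 1185 were kept, 124 were lost and 1 changed sign: Pcdhga1 between the regions in aged WT mice on the normal diet went from -0.76 to 0.0066 with normexp. The cause of these shifts was not tested. Kept calls include those under p without adjustment, which cannot end one, and under the deposited log2 values, nearly the values used here.

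Ageing in cortex gave 3 calls in place of 6 with median scaling, a fit of the 2 groups alone or the methods' t-test with adjustment, and 3 with normexp (2 higher and Pcdha12 lower). Ttpa-/- deficient against WT normal cortex gave 1 with median scaling and 0 with normexp. Ttpa-/- against WT on the deficient diet in cortex gave 0 with median scaling, normexp, array weights, a fit of the 2 groups alone and the methods' t-test with adjustment. With normexp there were also 3 for ageing in cerebellum, 3 between the regions in aged WT mice on the normal diet and in supplemented Ttpa-/- mice, and 6 in deficient Ttpa-/- mice. The interaction of age and region gave 0 with median scaling, 1 with normexp, and 6 with array weights or unadjusted p. The deficient diet in WT cerebellum gave 1 with median scaling, quantile normalization and array weights (Pcdhb3), and with unadjusted p and the methods' unadjusted t-test (Pcdhb2). The deficient diet in WT cortex (Pcdhgc5) and the supplemented Ttpa-/- against WT cortex (Pcdha9) each gave 1 with array weights, unadjusted p and the methods' unadjusted t-test. Deficient against supplemented Ttpa-/- cerebellum gave 1 with both unadjusted tests (Pcdhgb1), and Ttpa-/- against WT on the deficient diet in cerebellum 1 with unadjusted p (Pcdhb11).

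Leaving out 1 array at a time gave 3 to 6 calls for ageing in cortex, 5 to 7 in cerebellum and 2 to 4 for their difference. Ttpa-/- deficient against WT normal gave 4 to 7 in cortex, 0 to 1 in cerebellum and 0 to 2 for the difference. The regions differed in 7 to 11 members in young mice, 7 to 10 in aged WT mice on the normal diet, 7 to 11 on the deficient diet, 9 to 12 in deficient and 8 to 11 in supplemented Ttpa-/- mice. The deficient diet in WT mice gave 0 to 1 in each region, as did deficient against supplemented Ttpa-/- mice. Ttpa-/- against WT on the deficient diet gave 0 to 1 in cortex and 0 to 0 in cerebellum, and supplemented Ttpa-/- against WT 0 to 0 in each. No call changed sign.

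With the replicate number as a block the counts were 5 for ageing in cortex, 6 in cerebellum and 4 for the difference, 6 for Ttpa-/- deficient against WT normal cortex, 1 for Ttpa-/- against WT on the deficient diet in cortex, and 8, 9, 9, 11 and 10 between the regions, in the order above; no other comparison gained a call and no count moved by over 1.5 times. Outside the comparisons named under the processing, pair correlations ran from -0.452 to 0.639. Dim probes limit Pcdhb2, Pcdhb5, Pcdhb8, Pcdhga1 and Pcdha8 probe 1.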
